A study of Mus musculus with 15 samples.

Results

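Cells made from a mouse induced pluripotent stem cell (iPSC) line were sorted at day 13 of a differentiation towards smooth muscle, and cells with an active smooth muscle reporter (GFP+) were compared with cells of the same day without it (GFP-). The comparison uses 6 of the 15 samples of the study, all those labelled D13 GFP+ or D13 GFP-, and every one of the 25206 probe sets measured. The line carries Acta2hrGFP, a green fluorescent protein reporter of Acta2, the gene of smooth muscle alpha-actin, and all 6 samples derive from it. D13 GFP+ and D13 GFP- hold 3 samples each, and both carry the replicate numbers 3, 5 and 6. The other groups, of 3 samples each, are GFP+ smooth muscle cells labelled as primary aortic (Aorta GFP+), undifferentiated iPSC at day 0 (D0) and mesodermal progenitors sorted at day 5 for Kdr, also named Flk-1 (D5 Flk-1+). The labels do not say whether the aortic cells were cultured. The strain, the age of the aorta donors, the culture conditions and whether the line is 1 clone are not given in the sources used here.

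Smooth muscle cells contract through actin, myosin and the proteins that anchor and regulate them, and they switch these genes on through serum response factor and its cofactor myocardin. Acta2 appears early in this programme and is also active in myofibroblasts, pericytes and the embryonic heart, so an Acta2 reporter marks more than mature smooth muscle. Cultures of differentiating stem cells commonly also hold endothelial cells and cells of the visceral endoderm, the epithelium that surrounds the early embryo and secretes lipoproteins and serum proteins.

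Levels are log2 values, on which a difference of 1 is a 2-fold change, and every difference is D13 GFP+ minus D13 GFP-. A gene is called higher or lower, and is said to have risen or fallen in GFP+ cells, where its adjusted p from limma is under 0.05. Sample values stand in the order of the numbers 3, 5 and 6. The 6 samples had medians between 4.17 and 4.23. With 3 arrays a group, their number limits the precision. The study describes biological triplicates without saying how far the samples were separate. Each p-value therefore measures only the spread between samples within the 5 groups, estimated from all 15 samples and not from the 6 alone. The 6 alone gave fewer calls, 193 higher and 266 lower. Presence calls were not used here, and a low level is not shown to lie above background.

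The samples numbered 3 stood apart from those numbered 5 and 6 in both sorts. Samples of equal number deviated together from their group means, with correlations across probe sets of 0.597 for number 3, 0.403 for number 5 and 0.397 for number 6, where genes are not independent replicates. Unequal numbers gave 0.345 for GFP+ 5 with GFP- 6 and 0.278 for GFP+ 6 with GFP- 5, so numbers 5 and 6 were set apart from each other far less than number 3 was from both. Between number 3 of one sort and number 5 or 6 of the other, the correlation was -0.419 to -0.5. Deviations from a group mean cancel within each sort, so these negative values follow in part from the positive value of number 3 and add no separate evidence. Counts of calls are also given from a fit with the replicate number as a block, called the blocked fit.

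Of the 25206 probe sets, 508 (2.02%) were higher in GFP+ cells and 634 (2.52%) were lower, together 4.53%. The median difference over all probe sets was 0.01. Large differences lay on the lower side: 38 of the lower probe sets differed by at least 4-fold, against 1 of the higher. At least 2-fold differences numbered 223 on the lower side and 162 on the higher. The 3 values of each sort did not overlap for 501 of the higher and 632 of the lower probe sets, and over all probe sets this held for 9.5% with GFP+ above and 9.96% with GFP+ below. In the blocked fit, 854 (3.39%) were higher and 944 (3.75%) lower, together 7.13%, and these included all 508 and all 634. Every list count below is to be read beside these shares of all probe sets, and a count near them is no result about its list. Without number 3 in either sort, 438 were higher and 496 lower. The counts were 170 and 264 without number 5, and 226 and 282 without number 6. Among single samples, leaving out GFP+ 6 gave 307 higher and 346 lower, and leaving out GFP- 5 gave 310 and 419. After cyclic loess scaling, 605 were higher and 537 lower, so the direction with more genes turned.

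Acta2 (11475_at) checks the sort. Its level was 11.23, 11.47 and 11.27 in GFP+ cells, against 10.16, 11.00 and 10.85 in GFP- cells. Every GFP+ value lay above every GFP- value, by a mean of 0.65 (SE 0.229, 1.57-fold, limma adjusted p = 0.151, and 0.0843 in the blocked fit), so Acta2 did not pass the test. The mean of Acta2 was 12.10 in aortic cells and 5.93 in the day 5 progenitors. Each GFP- sample also held more Acta2 signal than the day 5 mean. In bulk samples, fewer cells of a type and less RNA per cell cannot be told apart, here and in every result that follows.

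The largest differences were in secreted and surface proteins that were lower in GFP+ cells. Pga5 (58803_at), a pepsinogen of the stomach, stood at 5.57, 5.24 and 5.20 in GFP+ cells and at 9.26, 9.38 and 9.41 in GFP- cells, a log2 difference of -4.01 (SE 0.164, 16.2-fold lower, limma adjusted p = 3.66e-09). Spink1 (20730_at), a trypsin inhibitor of the pancreas and gut, had levels of 5.06, 4.42 and 4.08 in GFP+ cells and of 8.42, 8.69 and 8.43 in GFP- cells (-4.00, SE 0.207, limma adjusted p = 5.94e-08). For both genes the sorts were separated by more than the whole spread among replicates. Srgn (19073_at), the core protein of a secretory granule proteoglycan, had levels of 6.73, 6.34 and 5.78 in GFP+ cells, against 9.39, 10.21 and 10.12 in GFP- cells (12.4-fold lower, limma adjusted p = 5.27e-07). Unlike Pga5 and Spink1, whose means in aortic cells were 3.59 and 3.28, Srgn had a mean of 9.36 there. Apob (238055_at), the structural protein of lipoproteins, had levels of 3.75, 3.88 and 3.74 in GFP+ cells and 6.80, 7.49 and 7.58 in GFP- cells (-3.50, SE 0.237, limma adjusted p = 6.39e-07). Its GFP+ values lay above the day 5 and day 0 means of 3.31 and 3.27 by less than 1.

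The other 8 of the 12 genes that fell most were Car4, Trh, Podxl, Cldn6, Emb, Cdh1, Sfrp5 and Muc13. Car4, a carbonic anhydrase anchored on the cell surface, fell by 3.44 on the log2 scale, and Trh, the precursor of thyrotropin-releasing hormone, by 3.21. Podxl, a sialomucin of podocytes, endothelium and early embryonic cells, had levels of 5.63, 4.90 and 4.87 in GFP+ cells, against 8.29, 8.33 and 8.15 in GFP- cells. For Car4 and Podxl the GFP- means were 8.28 and 8.26, beside day 5 means of 8.14 and 8.30. Emb, a chaperone of lactate transporters, fell by 2.79, and Sfrp5, a secreted Wnt antagonist of the early foregut and visceral endoderm, by 2.72. Muc13, a membrane mucin of the gut, had levels of 3.06, 3.43 and 3.59 in GFP+ cells and 5.13, 6.42 and 6.48 in GFP- cells, with number 3 the lowest of the GFP- samples. Each of the 12 kept its call when any 1 sample was left out.

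**Figure D1:**
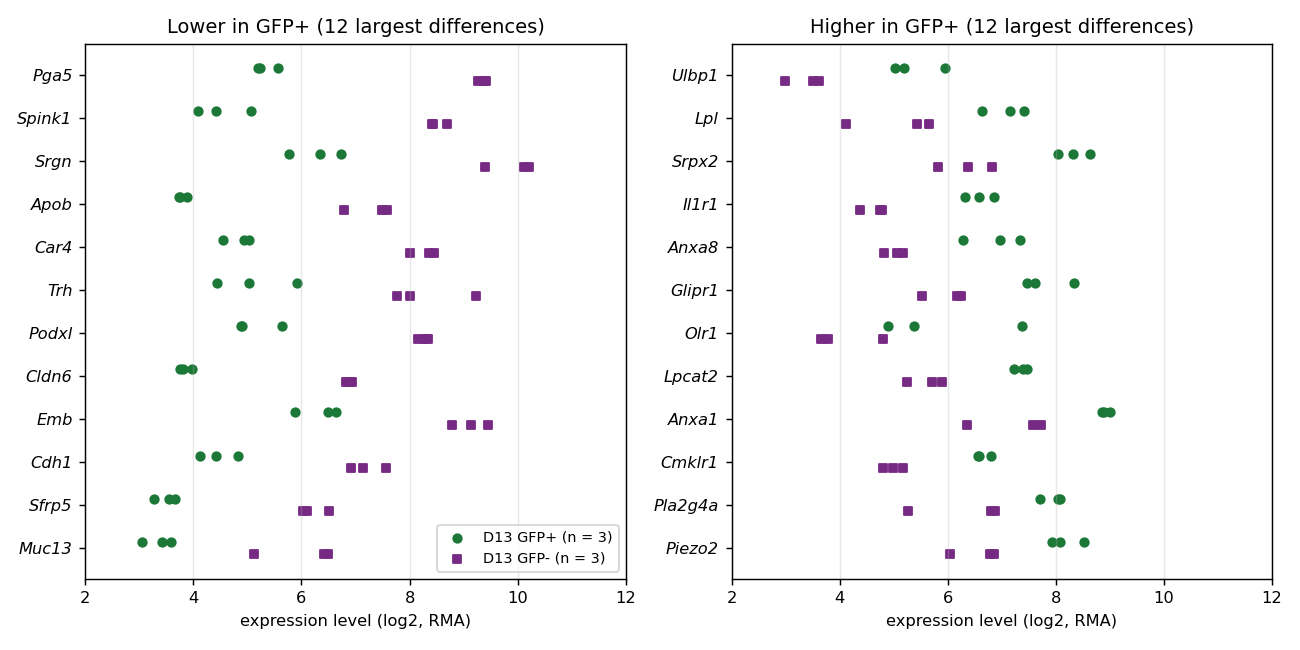
Level (log2, RMA) of the 12 genes with the largest differences in each direction, 1 point per sample, with D13 GFP+ as circles above D13 GFP- as squares for each gene. The genes were chosen only among those whose 3 points of each sort do not overlap. The gaps are wider among genes lower in GFP+ (for Pga5 5.20 to 5.57 in GFP+, against 9.26 to 9.41 in GFP-) than among genes higher in it.

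Epithelial genes had the lowest median of the 41 gene lists. Of 23 measured genes of epithelial junctions and keratins, 12 fell, 0 rose and 11 did not pass, with a median difference of -0.93. Cldn6 (54419_at), a tight junction claudin of embryonic epithelium, had levels of 3.97, 3.80 and 3.75 in GFP+ cells and of 6.94, 6.81 and 6.89 in GFP- cells (-3.04, SE 0.21, limma adjusted p = 7.51e-07). Cdh1 (12550_at), E-cadherin of adherens junctions, had levels of 4.82, 4.42 and 4.13 in GFP+ cells and of 7.57, 7.14 and 6.92 in GFP- cells (-2.76, SE 0.187, limma adjusted p = 6.39e-07). In both genes every GFP+ value lay between the aortic mean, 3.45 and 3.94, and the GFP- values. Epcam, an epithelial adhesion molecule, averaged 4.06 ± 0.385 in GFP+ cells and 6.21 ± 0.17 in GFP- cells (SD, n = 3 each). The paired keratins Krt8 and Krt18 of simple epithelia fell by 1.63 and 1.61 and stayed above their aortic means in GFP+ cells, at 6.46 against 4.87 and at 7.06 against 4.98. The others that fell were Spint1, Esrp1, Prss8, Ocln, Elf3, Cldn7 and Cldn4. The count was 12 to 15 when any 1 sample was left out.

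Secreted proteins of the visceral endoderm and liver also fell. Of 25 measured, 10 fell, 0 rose and 15 did not pass (median -0.58), and the count stayed at 10 when any 1 sample was left out. After Apob came Apoa1, the main protein of high-density lipoprotein, with 4.59, 4.70 and 4.44 in GFP+ cells and 6.81, 7.22 and 7.29 in GFP- cells (-2.53, SE 0.161, limma adjusted p = 3.91e-07). Afp, the fetal serum protein alpha-fetoprotein, had levels of 3.67, 3.60 and 3.75 in GFP+ cells and of 5.17, 5.79 and 6.11 in GFP- cells (-2.02, limma adjusted p = 9.71e-06). In Afp the GFP- sample numbered 3 was the lowest of its sort, yet above every GFP+ sample. Fgb, a fibrinogen chain, fell by 1.94, and Cyp26a1, the enzyme that breaks down retinoic acid, by 1.84. Lrp2 and Cubn, endocytic receptors of the visceral endoderm, fell by 1.48 and 1.08, and Ttr, the thyroxine carrier transthyretin, by 1.07. Alb, serum albumin, was at 2.31 in GFP+ and 2.41 in GFP- cells and was not called (limma adjusted p = 0.821).

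Among 19 measured endoderm transcription factors, 10 fell, 0 rose and 9 did not pass (median -0.43). Eomes (13813_at), a T-box factor of early mesendoderm, had levels of 5.85, 4.95 and 4.48 in GFP+ cells and of 8.39, 7.31 and 6.85 in GFP- cells (-2.43, SE 0.355, limma adjusted p = 0.000847). Its number 3 sample was the highest in each sort, and its day 5 mean was 9.88. Foxa1 (15375_at), a pioneer factor of gut endoderm, had levels of 3.87, 3.73 and 3.84 in GFP+ cells and of 5.66, 5.76 and 5.62 in GFP- cells (-1.86, SE 0.14, limma adjusted p = 1.74e-06). Hnf4a, the nuclear receptor that drives liver and visceral endoderm genes, fell by 1.42. Gata4, which acts in endoderm and in the heart, fell by 1.12, while Gata6 averaged 7.90 in GFP+ and 8.14 in GFP- cells and was not called (limma adjusted p = 0.683). Hhex lost its call without any 1 sample, Foxa2 without any but GFP- 5 and Foxa3 without any but GFP- 3 (highest limma adjusted p 0.14, 0.111 and 0.147), and the list then counted 7 or 8 members lower.

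Pga5, Spink1, Muc13 and Vil1 were the 4 genes that fell among 24 gastric, intestinal and pancreatic secretory genes, and 20 did not pass (median 0.01). Vil1, the actin bundler of microvilli, was at 3.19, 3.11 and 3.18 in GFP+ cells and at 4.10, 3.74 and 3.87 in GFP- cells (-0.75, limma adjusted p = 0.00341). Cldn18, the claudin of the stomach, averaged 3.26 in GFP+ and 3.24 in GFP- cells and was not called (limma adjusted p = 0.977). Pdx1, the pancreatic and duodenal homeobox factor, averaged 4.01 in GFP+ and 3.89 in GFP- cells and was not called (limma adjusted p = 0.819). For Cldn18 and Pdx1 the values of the sorts overlapped.

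**Figure D2:**
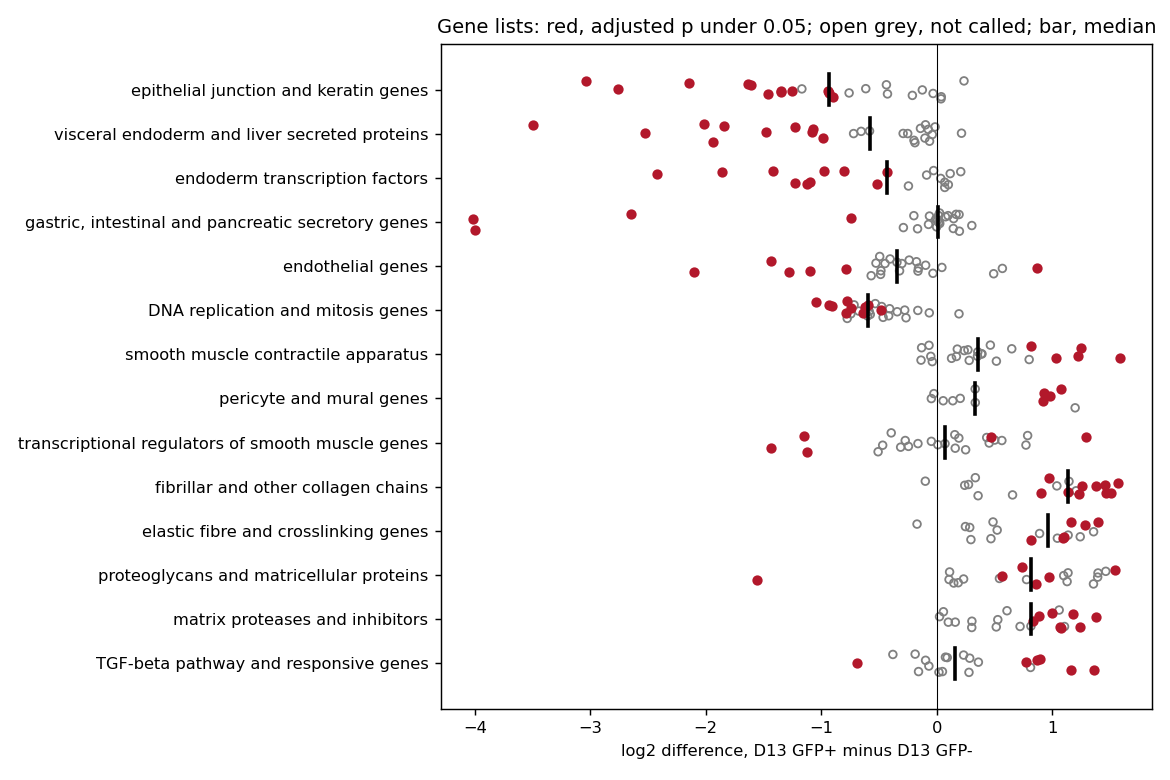
Log2 difference (D13 GFP+ minus D13 GFP-, horizontal axis) of each measured member of 14 gene lists, with called genes filled red, others open grey and the list's median as a bar. Medians run from -0.93 for epithelial genes to 1.14 for collagen chains, and the gastric and intestinal list has its median at 0.01 with Pga5, Spink1 and Muc13 far below it.

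Endothelial genes fell in part. Of 25 measured, 5 fell, 1 rose and 19 did not pass (median -0.34), and 21 differences lay below 0 and 4 above. Cdh5 (12562_at), VE-cadherin of endothelial junctions, had levels of 5.40, 4.30 and 4.62 in GFP+ cells and 7.53, 6.47 and 6.62 in GFP- cells (-2.10, SE 0.329, limma adjusted p = 0.00144). Pecam1, the junction protein CD31, had levels of 4.25, 4.19 and 4.30 in GFP+ cells and 5.85, 5.41 and 5.32 in GFP- cells (-1.28, SE 0.234, limma adjusted p = 0.00481). The GFP- samples numbered 3 held the highest Cdh5 and Pecam1 levels. Tek, the angiopoietin receptor, fell by 1.44, Sox17, a factor of endoderm and arterial endothelium, by 1.10 and Mmrn2, an endothelial matrix protein, by 0.78. Kdr, the day 5 sort marker, averaged 5.99 in GFP+ and 6.30 in GFP- cells and was not called (limma adjusted p = 0.573). Eng, a TGF-beta co-receptor of endothelium and mural cells, was the member that rose, with 7.29, 7.83 and 7.99 in GFP+ cells and 6.66, 6.88 and 6.95 in GFP- cells, and it lost its call without GFP+ 6 (limma adjusted p = 0.0622). Without GFP+ 3, 2 endothelial genes were higher. Tek lost its call without GFP+ 3, GFP- 5 or GFP- 6 (highest limma adjusted p 0.064).

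The defining markers of other cell types moved with the sort in part. All 5 epithelial markers, 4 of 5 visceral endoderm markers and 3 of 5 endothelial markers were lower in GFP+ cells. The mean level of the epithelial markers was 4.92 to 5.37 in GFP+ samples and 7.31 to 7.48 in GFP- samples. That of the visceral endoderm markers was 3.78 to 3.95 in GFP+ samples and 5.21 to 5.62 in GFP- samples, and that of the endothelial markers was 4.32 to 4.55 in GFP+ and 5.34 to 5.46 in GFP- samples. All 5 leukocyte and all 3 measured erythroid markers lay below 4 in every day 13 sample. Of 5 markers each of fibroblasts, cardiac muscle, mesothelium, neural cells and undifferentiated iPSC, 0 were called by limma in either direction. At an unadjusted p under 0.05, 1 fibroblast and 1 neural marker were higher and 1 mesothelial and 1 iPSC marker lower, and the blocked fit called 2 fibroblast and 1 neural marker higher and 1 iPSC marker lower. No share of all probe sets was counted at the unadjusted threshold, so the unadjusted counts are no result about these cell types. The share of each cell type in the sorted samples was not measured, and its part in the differences reported here was not tested.

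The next genes, which background places in the epiblast, primitive streak or early mesoderm, were picked after their values were seen because they were lower in GFP+ cells, so they do not stand for a group. Lhx1 (16869_at), a homeobox factor of early mesoderm and anterior endoderm, had levels of 4.60, 4.53 and 4.08 in GFP+ cells and 7.31, 6.88 and 6.83 in GFP- cells (-2.61, SE 0.235, limma adjusted p = 1.05e-05). Its mean was 8.09 at day 5 and 3.39 at day 0. Sall4, a zinc finger factor of pluripotent cells, fell by 2.13, as did Otx2, a homeobox factor of epiblast and visceral endoderm. Fgf5, a growth factor of the epiblast, fell by 2.08 and Dnmt3b, a DNA methyltransferase of the early embryo, by 2.02. Mixl1, a primitive streak factor, averaged 3.82 ± 0.465 in GFP+ and 5.45 ± 0.681 in GFP- cells (SD, n = 3 each), where its day 5 mean was 10.87. Mixl1 lost its call without GFP+ 6 (limma adjusted p = 0.0546). Cfc1 and Foxh1, which act in Nodal signalling, fell by 1.59 and 1.58.

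Among pluripotency genes, 4 of the 21 measured fell, 17 were not called and 0 rose (median -0.01), and the blocked fit called 6 lower and 1 higher. Lin28a, an RNA-binding protein that blocks let-7 maturation, had levels of 4.25, 4.67 and 4.11 in GFP+ cells and 6.01, 5.80 and 5.58 in GFP- cells (-1.46, limma adjusted p = 0.000506). Sox2, Tfcp2l1 and Tbx3 were the other 3. Pou5f1 averaged 4.55 in GFP+ and 4.44 in GFP- cells and was not called (limma adjusted p = 0.892). Nanog averaged 3.79 in GFP+ and 4.41 in GFP- cells (limma adjusted p = 0.0769, and 0.0491 in the blocked fit), against 9.98 at day 0. Tbx3 lost its call without GFP+ 3, GFP+ 6 or GFP- 5.

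DNA replication and mitosis genes fell in part. Of 29 measured, 10 fell, 0 rose and 19 did not pass (median -0.60). The groups did not overlap for 22, all with GFP+ below, where this held for 9.96% of all probe sets. The blocked fit called 16 lower, against 3.75% of all probe sets. Mcm7 (17220_at), a subunit of the replicative helicase, had levels of 6.79, 6.88 and 6.63 in GFP+ cells and 8.11, 7.73 and 7.60 in GFP- cells (-1.05, SE 0.153, limma adjusted p = 0.000847). Mcm5, of the same complex, fell by 0.93, the mitotic cyclin Ccnb2 by 0.90 and the mitotic kinase Aurka by 0.78. Ccnb2 lost its call without GFP+ 3, GFP+ 5 or GFP- 3 (highest limma adjusted p 0.0759). Mki67, a protein of cycling cells, had levels of 7.72, 8.37 and 8.58 in GFP+ cells and 8.60, 8.76 and 8.73 in GFP- cells and was not called (limma adjusted p = 0.327). GFP+ 3 was the lowest of the 6 samples for Mki67. The count was 4 without GFP+ 3, 5 without GFP+ 6 and 6 without GFP- 5. Of 16 CDK inhibitor and growth arrest genes, 0 were called by limma in either direction, 4 were higher at an unadjusted p under 0.05, and 1 was higher in the blocked fit (Cdkn2b, limma adjusted p = 0.00197). The share of all probe sets at that unadjusted threshold was not counted, so the count of 4 is no result about the list.

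Contractile genes rose in part. Of 24 measured genes of the smooth muscle contractile apparatus, 5 rose, 0 fell and 19 did not pass (median 0.36, against 0.01 over all probe sets), and the blocked fit called 6. Actg2 (11468_at), the gamma-actin of visceral smooth muscle, had levels of 7.29, 7.03 and 6.44 in GFP+ cells and 5.32, 5.35 and 5.32 in GFP- cells (1.59, SE 0.232, 3.01-fold, limma adjusted p = 0.00083). Myl9 (98932_at), the regulatory light chain of smooth muscle myosin, had levels of 9.19, 9.28 and 9.20 in GFP+ cells and 7.67, 8.13 and 8.19 in GFP- cells (1.23, SE 0.188, limma adjusted p = 0.00124). Tagln (21345_at), the actin-binding protein transgelin, had levels of 9.43, 9.44 and 9.29 in GFP+ cells and 8.08, 8.54 and 8.44 in GFP- cells (1.04, SE 0.165, limma adjusted p = 0.00167). In all 3 genes the sorts did not overlap and each lay between the day 5 and aortic means, which for Tagln were 4.67 and 11.20. Tpm2, beta-tropomyosin, rose by 0.82, and Itga8, an integrin chain of smooth muscle, by 1.25. Itga8 lost its call without GFP+ 5, GFP+ 6 or GFP- 3 (highest limma adjusted p 0.135). Mylk, the kinase of myosin light chain, averaged 5.41 ± 0.513 in GFP+ and 4.61 ± 0.344 in GFP- cells (SD, n = 3 each) and was called by the blocked fit alone (limma adjusted p = 0.0727, and 0.00729 in the blocked fit).

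Genes of mature smooth muscle were low in both sorts beside the aorta. Myh11 (17880_at), smooth muscle myosin heavy chain, had levels of 4.36, 4.78 and 4.78 in GFP+ cells and 4.30, 4.34 and 4.45 in GFP- cells (limma adjusted p = 0.431), and its aortic mean was 11.03. Lmod1, a leiomodin that nucleates actin filaments, averaged 4.82 in GFP+ and 4.55 in GFP- cells, with an aortic mean of 9.19. Cnn1, calponin, averaged 6.14 ± 0.402 in GFP+ and 5.62 ± 0.603 in GFP- cells (SD, n = 3 each, limma adjusted p = 0.347), with an aortic mean of 10.89. Smtn, smoothelin, averaged 7.74 in GFP+ and 7.50 in GFP- cells, with an aortic mean of 10.79. For these 4 genes the aortic mean exceeded each day 13 value.

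**Figure D3:**
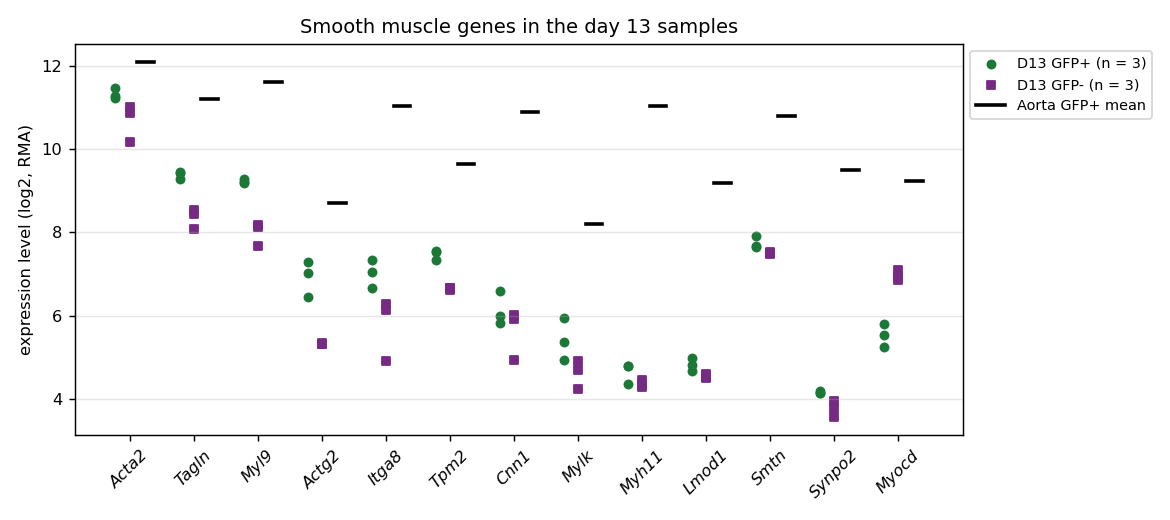
Level (log2, RMA) of 13 smooth muscle genes in each D13 GFP+ sample (circles, left) and D13 GFP- sample (squares, right), with the mean of the 3 Aorta GFP+ samples as a bar. The aortic mean lies above every day 13 point of its gene, with the widest gap for Myh11 (11.03 in the aorta), and Myocd is the 1 gene shown that is lower in GFP+ than in GFP- samples.

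Among 25 transcriptional regulators of smooth muscle genes, 2 rose and 3 fell (median 0.07). Myocd (214384_at), myocardin itself, was lower in the reporter-positive cells, with 5.25, 5.81 and 5.54 in GFP+ cells and 6.95, 7.09 and 6.87 in GFP- cells (-1.44, SE 0.147, 2.71-fold lower, limma adjusted p = 3.34e-05). Its means were 4.79 at day 5 and 9.24 in the aorta, so GFP+ cells were the farther of the 2 sorts from the aorta in this gene. Hey2 (15214_at), a Notch target of the arteries and heart, had levels of 5.38, 5.41 and 5.18 in GFP+ cells and 6.70, 6.32 and 6.39 in GFP- cells (-1.15, limma adjusted p = 0.00362). Both Myocd and Hey2 kept their calls when any 1 sample was left out. Prrx1, a homeobox factor of mesenchyme, rose by 1.30, with GFP- 3 the lowest sample at 5.96, and lost its call without GFP+ 5 (limma adjusted p = 0.0536). Jag1, a Notch ligand, rose by 0.47 and lost its call without any 1 of 5 samples, all but GFP- 3 (highest limma adjusted p 0.15). Srf averaged 6.66 in GFP+ and 6.93 in GFP- cells and was not called (limma adjusted p = 0.462).

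Of 20 measured cardiac genes, 1 fell, 0 rose and 19 did not pass (median -0.18), where 2.52% of all probe sets fell and 2.02% rose. The blocked fit called 3 lower and 0 higher, where it called 3.75% of all probe sets lower and 3.39% higher. Tnni3, cardiac troponin I, had levels of 4.69, 5.14 and 5.00 in GFP+ cells and 5.96, 5.77 and 5.68 in GFP- cells (-0.86, limma adjusted p = 0.00352). Tnnt2, cardiac troponin T, averaged 9.43 in GFP+ and 9.36 in GFP- cells and was not called (limma adjusted p = 0.955), with an aortic mean of 5.81. Ttn, the giant sarcomere protein titin, had levels of 4.83, 6.91 and 6.79 in GFP+ cells and 5.52, 7.83 and 7.91 in GFP- cells (limma adjusted p = 0.514, and 0.0003 in the blocked fit). Number 3 was the lowest in each sort for Ttn, and within each number GFP+ was below GFP-. The cardiac count was 3 without GFP- 3. Outside the lists, and named after their values were seen, Lmod2, the leiomodin of striated muscle, fell by 1.64 and Tnnt1, slow skeletal troponin T, by 1.45. Lmod2 lost its call without GFP+ 6 (limma adjusted p = 0.0546).

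Serum response factor binds the CArG box, a motif found near many contractile genes, so the promoters of the called genes were searched on both strands in a window from before to just after each gene's start (RefSeq, GRCm38.p6). A CArG box stood in 1.47% of 21466 promoters, in 1.50% of 468 promoters of genes higher in GFP+ cells and in 1.13% of 621 promoters of lower genes. Of the 21 contractile genes with a promoter listed, 2 held one in this window, Myl9 and Vcl. The window was short, for Myl9 chr2:156775214-156775513, and only exact matches were counted. Boxes with a mismatch, farther upstream or in introns were not searched. The Myl9 box is shown because Myl9 was among the genes that rose, at chr2:156775283-156775332 (plus strand), with the box in capitals, at position -161 relative to the gene's start.
Myl9 promoter stretch: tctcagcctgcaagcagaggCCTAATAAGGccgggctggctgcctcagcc
Vcl, vinculin of adhesion sites, averaged 9.68 in GFP+ and 9.81 in GFP- cells and was not called (limma adjusted p = 0.743). The TEAD motif GGAATG was in 13.5% of all promoters, 14.1% of those higher and 13.0% of those lower, and the AP-1 motif TGANTCA in 7.16%, 6.62% and 6.12% in the same order. The GATA motif AGATAA was in 9.48% of all promoters, 2.99% of those higher and 7.41% of those lower. A match is not a binding site, and the base composition of the promoters was not compared.

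Collagen chains had the highest median of the 41 gene lists. Of 19 measured, 10 rose, 0 fell and 9 did not pass (median 1.14), and 13 rose in the blocked fit. Col5a2 (12832_at), a chain of the fibril-starting collagen V, had levels of 7.52, 8.20 and 8.41 in GFP+ cells and 5.64, 6.64 and 7.12 in GFP- cells (1.57, SE 0.316, limma adjusted p = 0.00857). Col6a1 (12833_at), of the beaded microfibrils, had levels of 8.74, 7.91 and 8.44 in GFP+ cells and 6.72, 6.90 and 7.07 in GFP- cells (1.47, SE 0.171, limma adjusted p = 0.000115). The sorts did not overlap for either chain. Col6a3 rose by 1.51, Col11a1, a cartilage and tendon collagen, by 1.46 and Col3a1, a collagen of vessel walls, by 1.38. Col1a1, the main chain of collagen I, had levels of 10.83, 11.23 and 11.41 in GFP+ cells and 9.31, 10.37 and 10.67 in GFP- cells and passed only with the block (limma adjusted p = 0.117, and 0.0408 in the blocked fit). The basement membrane chain Col4a1 averaged 8.07 in GFP+ and 7.79 in GFP- cells and was not called (limma adjusted p = 0.765). Without GFP+ 6 the collagen count was 6, and Col5a2 and Col3a1 lost their calls (limma adjusted p = 0.0515 and 0.0542). In the 6 day 13 samples alone, Col5a2, Col3a1, Col6a3 and Col11a1 were among the chains that lost their calls, while Col6a1 kept its call. The lowest collagen count under any alternative was 2.

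Elastic fibre and crosslinking genes also rose in part, with 6 of 18 higher, 0 lower and 12 not called (median 0.97), and 10 higher in the blocked fit. Loxl1 (16949_at), a lysyl oxidase that crosslinks elastin, had levels of 8.96, 8.71 and 8.81 in GFP+ cells and 7.41, 7.37 and 7.51 in GFP- cells (1.40, SE 0.132, limma adjusted p = 1.59e-05). Loxl3 rose by 1.29, Ltbp2, a latent TGF-beta binding protein of microfibrils, by 1.16 and Emilin1 by 1.09. Eln, elastin itself, had levels of 5.76, 6.90 and 7.29 in GFP+ cells and 4.70, 5.81 and 6.02 in GFP- cells (limma adjusted p = 0.0942, and 0.00102 in the blocked fit). Number 3 was the lowest for Eln in each sort, and GFP+ was above GFP- within each number. Lox, Fbln5 and Mfap2 likewise passed with the block alone (limma adjusted p = 0.0023, 0.0003 and 0.00123). Emilin1 lost its call without GFP- 5, and Fbln2 without GFP+ 3, GFP+ 6, GFP- 5 or GFP- 6.

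Of 20 proteoglycans and matricellular proteins, 5 rose, 1 fell and 14 did not pass (median 0.82), and the blocked fit called 12 higher and 1 lower. Ccn4 (22402_at), a Wnt-induced matricellular protein, had levels of 7.93, 8.49 and 8.42 in GFP+ cells and 5.98, 7.20 and 7.03 in GFP- cells (1.55, SE 0.256, limma adjusted p = 0.00229). Fn1, fibronectin, had levels of 11.53, 11.59 and 11.72 in GFP+ cells and 10.84, 11.05 and 11.25 in GFP- cells (0.57, limma adjusted p = 0.0149). Thbs1, a thrombospondin that activates TGF-beta, rose by 0.97 and Tnc, tenascin C, by 0.74. Spon2, a secreted spondin, was the member that fell, with 4.82, 4.99 and 4.76 in GFP+ cells and 6.03, 6.64 and 6.57 in GFP- cells (-1.56, limma adjusted p = 0.000452). Ccn1 and Ccn2, known targets of YAP and serum response factor, averaged 10.05 and 8.47 in GFP+ cells and 9.94 and 8.24 in GFP- cells and were not called (limma adjusted p = 0.878 and 0.741). Tnc lost its call without GFP+ 3, GFP+ 6, GFP- 5 or GFP- 6, Fn1 without GFP+ 6, GFP- 3 or GFP- 5, and Thbs1 without any 1 sample other than GFP- 5. The count on the higher side was 1 without GFP+ 6, 3 without GFP+ 5, 2 without GFP- 3 and 2 without GFP- 5.

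Enzymes that cut the matrix and their inhibitors rose in part: 8 of 21 genes were higher, 0 lower and 13 not called (median 0.82), and 12 rose in the blocked fit. Mmp2 (17390_at), a gelatinase, had levels of 10.72, 10.76 and 10.90 in GFP+ cells and 9.37, 9.80 and 10.01 in GFP- cells (1.07, SE 0.205, limma adjusted p = 0.00637). Mmp14, the membrane protease that activates it, rose by 0.84, and Adamts5, which cuts aggrecan and versican, by 1.18. Of the inhibitors, Timp3 (21859_at) had levels of 9.08, 8.63 and 8.46 in GFP+ cells and 7.13, 7.45 and 7.43 in GFP- cells (1.38, limma adjusted p = 0.00287), Timp1 rose by 1.24 and Timp2 by 0.89. Timp1 lost its call without GFP+ 3 or GFP- 5. The count was 7 to 9 when any 1 sample was left out.

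Signalling genes changed in both directions. In the TGF-beta list, 5 of 20 rose and 1 fell (median 0.16). Tgfb3 (21809_at), a ligand, had levels of 7.05, 8.11 and 8.18 in GFP+ cells and 5.39, 6.87 and 7.01 in GFP- cells (1.36, SE 0.348, limma adjusted p = 0.0362, and 5.59e-05 in the blocked fit). Tgfb3 lost its call without GFP+ 5, GFP+ 6 or GFP- 3 (highest limma adjusted p 0.164). The receptor Tgfbr2 rose by 0.77 and the activin chain Inhba by 0.90, while the co-receptor Tgfbr3 fell by 0.69. Tgfbr2 and Inhba lost their calls without GFP+ 5, GFP+ 6 or GFP- 3. The count on the higher side was 2 without GFP+ 5, 1 without GFP+ 6 and 2 without GFP- 3, and Tgfbr3 lost its call without any sample other than GFP+ 3.

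Of 29 BMP and Wnt ligands and antagonists, 2 rose and 3 fell (median 0.16), and the blocked fit called 6 higher and 5 lower. Bmp2, a BMP ligand of the heart and endoderm, had levels of 5.06, 4.81 and 4.18 in GFP+ cells and 5.88, 6.15 and 6.12 in GFP- cells (-1.37, limma adjusted p = 0.001). Dkk1, a Wnt antagonist, fell by 1.15 and Rspo3, which enhances Wnt signalling, by 0.91. Sfrp2, a Wnt modulator of mesenchyme, had levels of 7.63, 7.77 and 7.74 in GFP+ cells and 6.04, 6.67 and 6.91 in GFP- cells (1.17, limma adjusted p = 0.00124), and the ligand Wnt5a rose by 0.87. Without GFP+ 3 the count on the higher side was 4, and without GFP- 6 that on the lower side was 5.

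Of 30 ligands and receptors of the PDGF, VEGF, FGF and IGF families, 6 rose and 2 fell (median 0.34). Igfbp7 (29817_at), a secreted IGF-binding protein of vessels, had levels of 10.66, 10.36 and 10.22 in GFP+ cells and 8.98, 8.99 and 8.74 in GFP- cells (1.51, SE 0.178, limma adjusted p = 0.00013). Nrp2, a co-receptor of VEGF and semaphorins, rose by 0.98 and the ligand Pdgfc by 0.87. Fgf10, a ligand of the second heart field and limb, had levels of 5.65, 5.43 and 5.51 in GFP+ cells and 7.48, 7.15 and 6.86 in GFP- cells (-1.64, limma adjusted p = 0.0056), and Vegfc fell by 1.11. Vegfc lost its call without GFP+ 5, GFP+ 6 or GFP- 3, which left 1 gene lower.

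Mural cell genes rose in part, 4 of 12 with 0 lower and 8 not called (median 0.33). Pdgfrb (18596_at), the PDGF receptor of pericytes and smooth muscle, had levels of 8.42, 8.65 and 8.64 in GFP+ cells and 7.41, 7.51 and 7.57 in GFP- cells (1.08, SE 0.154, limma adjusted p = 0.000719). Cspg4, the pericyte proteoglycan NG2, rose by 0.98, Anpep, aminopeptidase N, by 0.93 and Cd248, endosialin, by 0.92. Rgs5, a pericyte regulator of G protein signalling, averaged 9.21 in GFP+ and 8.88 in GFP- cells and was not called (limma adjusted p = 0.389). Anpep lost its call without GFP+ 3, GFP- 5 or GFP- 6.

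Of 20 calcium, potassium and chloride channels, 2 rose and 0 fell (median 0.05), and the blocked fit called 4 higher and 1 lower. Kcnma1 (16531_at), the calcium-activated potassium channel that relaxes smooth muscle, had levels of 5.79, 6.30 and 6.63 in GFP+ cells and 3.70, 5.13 and 5.32 in GFP- cells (1.53, SE 0.344, limma adjusted p = 0.0172). Cacna1h, a T-type calcium channel, rose by 0.58 and lost its call without GFP+ 3, GFP+ 6, GFP- 5 or GFP- 6. Kcnma1 lost its call without GFP+ 5 or GFP+ 6 (highest limma adjusted p 0.0894). The channel count was 0 without GFP+ 6 and 1 without GFP+ 5, GFP- 5 or GFP- 6. Of 26 vasoactive receptors and cyclic GMP genes, Htr2b, a serotonin receptor, rose by 1.21 and Npr2, the receptor of C-type natriuretic peptide, by 0.77, while S1pr1, a sphingosine phosphate receptor, fell by 1.10 (median 0.14). S1pr1 lost its call without GFP+ 5, GFP+ 6 or GFP- 3.

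Integrin, adhesion and laminin genes were 5 higher and 2 lower of 25 (median 0.48), and 11 higher and 2 lower in the blocked fit. Itgb5 (16419_at), a vitronectin receptor chain, had levels of 9.12, 8.77 and 8.77 in GFP+ cells and 7.88, 7.77 and 7.70 in GFP- cells (1.10, SE 0.132, limma adjusted p = 0.000151). The laminin receptor chain Itga6 fell by 0.90 and the epithelial laminin chain Lama5 by 0.77. Itga6 lost its call without GFP+ 5, GFP+ 6, GFP- 3 or GFP- 5 (highest limma adjusted p 0.187) and Lama5 without GFP+ 6. The count on the higher side was 3 without GFP+ 5, GFP+ 6 or GFP- 6. On the lower side it was 0 without GFP+ 6 and 1 without GFP+ 5, GFP- 3 or GFP- 5. Of 17 retinoic acid genes, 4 rose and 2 fell (median 0.18): the receptors Rarb, Rxra and Rarg rose by 0.89, 0.73 and 0.63 and the synthesis enzyme Rdh10 by 0.63, while Cyp26a1 and the carrier Rbp4 fell by 1.84 and 1.23. Rarb lost its call without GFP+ 6 or GFP- 3 (highest limma adjusted p 0.058).

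The 12 genes that rose most were from several families. Ulbp1 (77777_at), a ligand of the natural killer cell receptor NKG2D, had levels of 5.95, 5.20 and 5.03 in GFP+ cells and 2.98, 3.61 and 3.50 in GFP- cells (2.03, SE 0.273, 4.07-fold, limma adjusted p = 0.000426). Lpl (16956_at), lipoprotein lipase, had levels of 6.63, 7.42 and 7.15 in GFP+ cells and 4.11, 5.43 and 5.65 in GFP- cells (2.00, SE 0.349, limma adjusted p = 0.00341). Of 12 adipocyte and fatty acid uptake genes Lpl was the 1 that passed, with 0 lower (median 0.22), and 2 passed without GFP+ 3 and in the blocked fit. Srpx2, a secreted sushi-repeat protein, had levels of 8.63, 8.05 and 8.33 in GFP+ cells and 5.82, 6.37 and 6.81 in GFP- cells (2.00, limma adjusted p = 0.000259). Il1r1 (16177_at), the interleukin 1 receptor, had levels of 6.86, 6.58 and 6.33 in GFP+ cells and 4.38, 4.79 and 4.74 in GFP- cells (1.95, SE 0.183, limma adjusted p = 1.44e-05), and its aortic mean was 8.64.

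The others were Anxa8, Glipr1, Olr1, Lpcat2, Anxa1, Cmklr1, Pla2g4a and Piezo2. Pla2g4a, the phospholipase that frees arachidonic acid, rose by 1.63 and Lpcat2, which makes platelet-activating factor, by 1.74. Ptgs2, the cyclooxygenase that acts on arachidonic acid, had levels of 7.58, 7.48 and 7.41 in GFP+ cells and 4.84, 6.33 and 6.46 in GFP- cells (1.61, SE 0.305, limma adjusted p = 0.00578) and was named after its values were seen. GFP- 3 was the lowest sample for both Ptgs2 and Pla2g4a. Anxa1, a phospholipid-binding annexin, rose by 1.69 and Cmklr1, the chemerin receptor, by 1.66. Piezo2, a channel opened by stretch, had levels of 8.53, 7.92 and 8.07 in GFP+ cells and 6.04, 6.78 and 6.85 in GFP- cells (1.62, limma adjusted p = 0.000538). Olr1, a receptor of oxidised lipoprotein, had levels of 7.37, 5.38 and 4.89 in GFP+ cells and 4.81, 3.66 and 3.78 in GFP- cells (1.80, limma adjusted p = 0.0373, and 0.000376 in the blocked fit). Olr1 was highest in number 3 of each sort, and it lost its call without GFP+ 3, GFP- 5 or GFP- 6 (highest limma adjusted p 0.145). The other 11 kept theirs when any 1 sample was left out, but Lpl, Anxa1 and Pla2g4a lost theirs in the 6 day 13 samples alone.

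MicroRNA genes of the imprinted Dlk1-Meg3 locus on chromosome 12 rose in part, 14 of 50. This maternally expressed cluster is processed from long transcripts, while Dlk1, a Notch-like protein of embryonic mesenchyme, is expressed from the paternal allele. The locus was chosen after its values were seen, its miRNA genes share transcripts and are not independent, and a probe set named for a miRNA gene cannot separate the mature miRNA from its precursor. The mature sequences annotated to the 5 called genes with the largest differences are shown (RefSeq, GRCm38.p6, plus strand). The seed, bases 2 to 8, is in capitals. For Mir485 only the 3p arm is shown. The levels of these mature molecules were not measured separately. All 50 genes of the locus matched an entry, and all 14 that were called did.
mmu-miR-434-5p (chr12:109594528-109594549): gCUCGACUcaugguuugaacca
mmu-miR-434-3p (chr12:109594565-109594586): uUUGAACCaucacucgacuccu
mmu-miR-376b-5p (chr12:109723471-109723492): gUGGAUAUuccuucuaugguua
mmu-miR-376b-3p (chr12:109723508-109723528): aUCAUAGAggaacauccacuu
mmu-miR-382-5p (chr12:109733781-109733802): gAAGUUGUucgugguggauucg
mmu-miR-382-3p (chr12:109733819-109733840): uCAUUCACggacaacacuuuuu
mmu-miR-485-3p (chr12:109734946-109734967): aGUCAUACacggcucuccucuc
mmu-miR-412-5p (chr12:109743303-109743325): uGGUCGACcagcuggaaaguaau
mmu-miR-412-3p (chr12:109743340-109743359): uUCACCUGguccacuagccg
The seeds shown differ from one another, and miR-376b-5p shares its seed with miR-376c-5p of the same locus.

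Of the 50 miRNA genes of the locus, 14 (28.0%) rose, 0 fell and 36 did not pass, where 2.02% of all probe sets rose and 2.52% fell. The median difference was 0.60 and 49 lay above 0. Of the 479 other miRNA probe sets, 2 rose (0.418%) and 4 fell (0.835%). Mir434 (723867_at) had levels of 4.20, 5.47 and 4.79 in GFP+ cells and 2.61, 3.88 and 3.83 in GFP- cells (1.38, SE 0.315, limma adjusted p = 0.0185, and 0.000158 in the blocked fit). Mir382 (723912_at) had levels of 6.41, 7.10 and 7.15 in GFP+ cells and 5.12, 5.91 and 5.98 in GFP- cells (1.21, SE 0.321, limma adjusted p = 0.0432). In both genes number 3 was the lowest of each sort, and within each number GFP+ was above GFP-. Mir412 (723913_at) had levels of 2.92, 3.16 and 2.68 in GFP+ cells and 1.81, 1.90 and 1.93 in GFP- cells (1.04, SE 0.166, limma adjusted p = 0.00175). Mir412 kept its call when any 1 sample was left out, Mir434 lost it without GFP+ 5, GFP+ 6 or GFP- 3, and Mir382 lost it without any 1 sample other than GFP+ 3. The count of the locus was 7, 3 and 3 without GFP+ 3, 5 or 6 and 3, 9 and 7 without GFP- 3, 5 or 6, and 19 in the blocked fit.

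**Figure D4:**
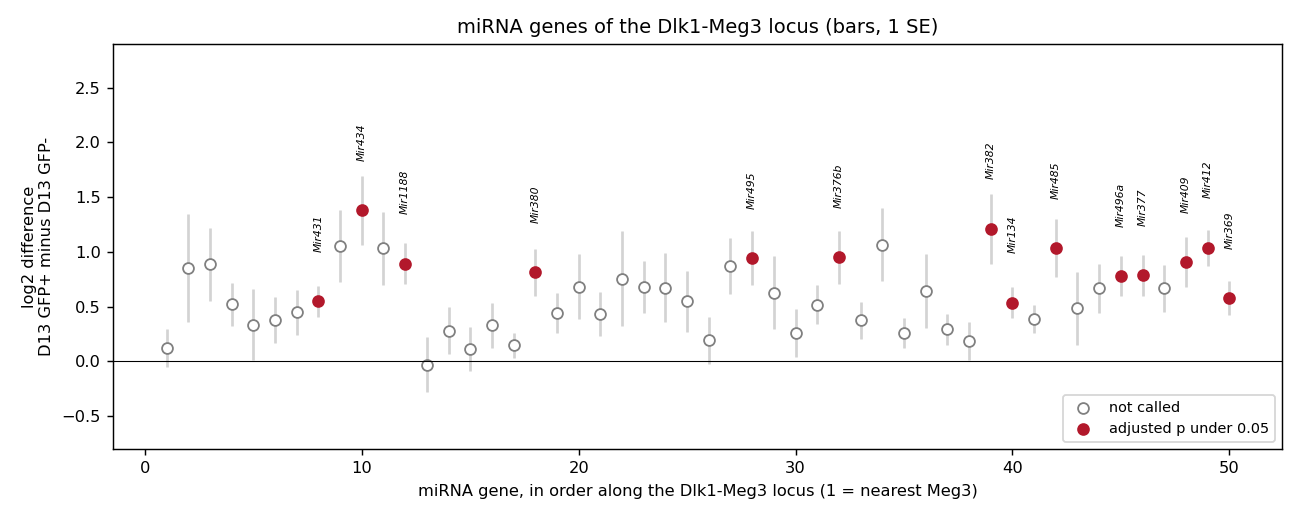
Log2 difference (D13 GFP+ minus D13 GFP-, bars 1 SE) of the 50 miRNA genes of the Dlk1-Meg3 locus in their order along the chromosome, with the 14 called genes filled red and named. Of the 50 points 49 lie above 0, and the called genes lie at positions 8 to 50 of the row, with 0 called between positions 18 and 28.

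The long maternal transcripts did not pass without the block. Meg3 (17263_at), a maternally expressed long RNA, had levels of 9.31, 9.81 and 9.99 in GFP+ cells and 7.91, 9.14 and 9.15 in GFP- cells (0.97, SE 0.315, limma adjusted p = 0.113, and 0.0228 in the blocked fit). Rian and Mirg differed by 0.52 and 0.48 and were not called in either fit (limma adjusted p = 0.301 and 0.397). Dlk1 (13386_at) had levels of 8.29, 8.68 and 9.05 in GFP+ cells and 6.96, 7.18 and 7.61 in GFP- cells (1.42, SE 0.248, limma adjusted p = 0.00336), and its means in aortic and day 5 cells were 4.75 and 4.86. Of the 25 imprinted genes listed, Dlk1 was the 1 that rose and Peg10, a retrotransposon-derived gene of the placenta, the 1 that fell (by 0.85), with a median of 0.11, and the blocked fit called 3 higher and 1 lower. Peg10 lost its call without any 1 sample other than GFP+ 3 (highest limma adjusted p 0.181).

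The 2 miRNA genes that rose outside the locus lie beside each other, Mir23b and Mir27b, and are shown for that reason (RefSeq, GRCm38.p6, plus strand, seed in capitals). For Mir23b only the 5p arm is shown, so its seed does not stand for every mature product of that gene.
mmu-miR-23b-5p (chr13:63300492-63300512): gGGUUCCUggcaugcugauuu
mmu-miR-27b-5p (chr13:63300718-63300739): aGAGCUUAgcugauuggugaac
mmu-miR-27b-3p (chr13:63300760-63300780): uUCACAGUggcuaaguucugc
Mir27b had levels of 5.98, 6.62 and 6.54 in GFP+ cells and 4.56, 5.49 and 5.57 in GFP- cells (1.17, SE 0.267, limma adjusted p = 0.0184), and Mir23b rose by 1.08. Both lost their calls without GFP+ 5, GFP+ 6 or GFP- 3 (highest limma adjusted p 0.083 and 0.134). The smooth muscle miRNA genes Mir143 and Mir145a averaged 5.53 and 4.11 in GFP+ cells and 4.91 and 3.26 in GFP- cells and were not called (limma adjusted p = 0.234 and 0.284). Mir145a passed in the blocked fit (limma adjusted p = 0.0428).

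Tendon genes differed between the replicate numbers within each sort. Tnmd (64103_at), tenomodulin of tendon, had levels of 3.16, 8.55 and 8.83 in GFP+ cells and 2.65, 7.34 and 7.90 in GFP- cells (limma adjusted p = 0.882, and 0.00374 in the blocked fit). Thbs4, a thrombospondin of tendon, had levels of 4.32, 8.35 and 8.56 in GFP+ cells and 3.39, 6.71 and 7.26 in GFP- cells (limma adjusted p = 0.659, and 0.00221 in the blocked fit). Number 3 lay far below numbers 5 and 6 in both sorts, while GFP+ exceeded GFP- within each number. The same held for Ogn and Aspn, small proteoglycans, whose GFP+ levels were 6.91, 10.08 and 10.32 and 6.03, 8.52 and 8.81, against GFP- levels of 4.87, 9.42 and 9.64 and 3.75, 7.54 and 7.87. Of 12 tendon genes, 3 rose (Scx, the tendon transcription factor, by 1.37, Comp by 0.93 and Tnc by 0.74), 0 fell and 9 did not pass (median 0.91), and the blocked fit called 8 higher. Without GFP+ 6 the count was 1, and Scx also lost its call without GFP+ 5 or GFP- 3 and Tnc without GFP+ 3, GFP- 5 or GFP- 6. Of 12 fibroblast genes, 1 rose (Loxl1) and 0 fell (median 0.62), with 4 higher in the blocked fit and 2 without GFP+ 3, GFP- 3 or GFP- 6.

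Other genes were high in number 3. Serpina3n, a secreted protease inhibitor, had levels of 9.05, 6.25 and 6.43 in GFP+ cells and 7.58, 5.08 and 5.18 in GFP- cells. Itga7, a laminin receptor chain of muscle, had levels of 7.38, 5.63 and 5.58 in GFP+ cells and 7.58, 5.65 and 5.39 in GFP- cells, and Ptk2b, a calcium-activated kinase, 7.53, 5.36 and 5.24 in GFP+ cells and 6.95, 5.43 and 5.18 in GFP- cells. In all, 80 probe sets lay at least 2-fold higher in number 3 than in the mean of numbers 5 and 6 in both sorts, and 211 lay at least 2-fold lower. These are descriptions of 1 number against 2, with no test. The labels do not tell what the numbers 3, 5 and 6 mark.

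**Figure D5:**
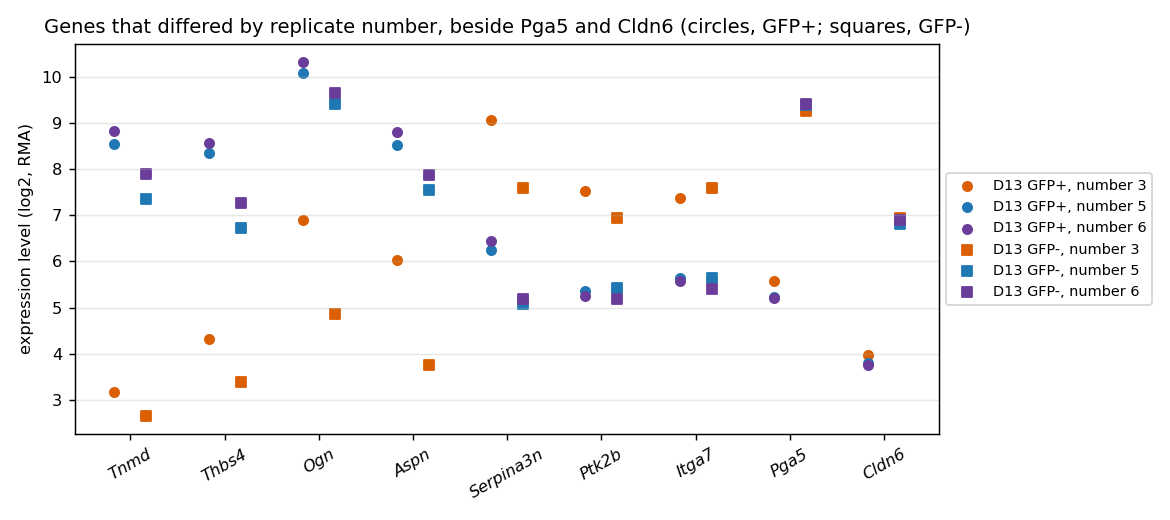
Level (log2, RMA) of genes chosen for their difference by replicate number, and of Pga5 and Cldn6, which differed by sort, in each day 13 sample, with GFP+ circles left of GFP- squares and 1 colour per number. Number 3 is the lowest for Tnmd, Thbs4, Ogn and Aspn and the highest for Serpina3n, Ptk2b and Itga7 in both sorts, while Pga5 and Cldn6 separate by sort.

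The genes that differed between the sorts were then set beside the contrast of aortic with day 5 cells. The contrasts share no sample in their means, but they come from the same fit and share each gene's estimate of spread. A gene with a small spread is more readily called in both, so the shares below are not independent support. Of the 508 probe sets higher in GFP+ cells, 365 (71.9%) were higher in the aorta than at day 5 and 37 (7.28%) were lower, where 22.3% and 23.7% of all probe sets were. Of the 634 lower in GFP+ cells, 434 (68.5%) were lower in the aorta and 79 (12.5%) higher. Those 365 were 6.49% of the 5620 probe sets higher in the aorta, and those 434 were 7.27% of the 5970 lower there. Among the 79 were Myocd, Hey2, Srgn and Pecam1, with GFP+ means of 5.53, 5.32, 6.28 and 4.24, GFP- means of 6.97, 6.47, 9.91 and 5.52, and aortic means of 9.24, 9.44, 9.36 and 7.99. These 4 were picked after their values were seen.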

How the data were processed

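RNA from 15 samples was measured on mouse gene arrays (Affymetrix Mouse Gene 2.0 ST). The deposited table holds log2 expression values of 25206 probe sets, made by RMA, which corrects the background, quantile-normalizes the arrays and summarizes the probes. The submitters' processing notes name affy 1.36.1 and R 2.15.1 for this step. The sources used here give no genome build for the probes. Of the probe sets, 23185 had 1 gene symbol and 2021 had none. No pair of the 15 samples held identical values (0 pairs).

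The values were used as deposited and fitted in limma 3.58.1 (R 4.3.3), with 1 mean for each of the 5 groups of 3 samples, so that all 15 samples share the estimate of the spread. Differences are D13 GFP+ minus D13 GFP-, p-values are two-sided and adjusted over all probe sets (Benjamini-Hochberg), and 0.05 is the threshold. Equal replicate numbers were taken to pair the day 13 samples, since each equal-number correlation of deviations from the group means was over 0.1 (0.597, 0.403 and 0.397). Between numbers 5 and 6 the unequal pairs also exceeded it (0.345 and 0.278), so the values mainly set number 3 apart, and the labels do not say what a number marks. The blocked fit adds the number as a fixed effect within day 13. Other alternatives were the 6 samples alone, a random block, array weights, other variance moderation, median centring, quantile and cyclic loess scaling, a filter on low values and leaving out samples.

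The text names Acta2, the 12 called genes of largest difference in each direction whose groups do not overlap, up to 4 members of largest difference per list, defining cell type markers, and genes that set number 3 apart. Genes named outside this rule are members of a list or are said to be chosen after their values were seen. The comparison, the members and the gene lists were chosen with earlier results of these data known, so no list is independent support. Lists are given by counts and medians, with no test of a list. Over all probe sets 2.02% were higher and 2.52% lower, and 3.39% and 3.75% in the blocked fit. A count near these shares is no result about its list. The fit was tested on simulated data: it recovered 16.4% of 67 genes given a log2 difference of 0.5, 85.1% of 67 given 1, and 93.9% of 66 given 2, and 13 of its 143 calls were false. The simulated noise was independent between samples, with no effect of the replicate number, and fewer genes were changed than were called in the real data. These rates therefore do not give the error rates of the real comparison. Promoter and miRNA sequences are from RefSeq (GRCm38.p6).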

Additional observations from a re-analysis of the deposited data

How the results depend on the processing

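The number of probe sets called depended on how the replicate number and the spread were treated. The 6 day 13 samples alone gave 193 higher and 266 lower. With a fixed replicate block, 854 were higher and 944 lower, and in the 6 samples alone 1045 and 1085. A random replicate block (consensus correlation 0.363) gave 1146 and 1372, and array weights gave 1383 and 1562. Leaving out samples gave 170 to 537 higher and 264 to 584 lower. Without number 3 and with the replicate block, an alternative chosen after seeing the data, 378 were higher and 446 lower. Trend and robust moderation, median centring, quantile scaling and the filter on low values gave 461 to 557 higher and 587 to 681 lower. Cyclic loess, which turned the direction with more calls, gave 605 higher and 537 lower, with 53.0% of calls higher against 44.5% in the values as deposited, and the scalings moved the median difference of all probe sets by less than 0.01. Acta2 passed with the replicate block in the 6 samples alone (limma adjusted p = 0.0362) and with the random replicate block (0.0319), with the same difference of 0.65 in both, which ranged from 0.40 to 0.81 when samples were left out. Of 198 named genes called, 0 reversed under any alternative, 131 kept the call with each single sample left out in turn, and 80 kept it under every alternative. In the 6 day 13 samples alone, 108 of the 198 kept the call and 90 lost it. Of the genes named as called, the blocked fit lost 0; its gains are printed in the report where they are named. With 3 arrays a group, small differences could be missed. No cause of these shifts was tested.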

Other observations

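Cathepsins moved in opposite directions among 19 lysosome and endocytosis genes, of which 2 rose and 2 fell (median 0.16). Ctsc, the cathepsin that activates serine proteases of leukocytes, had levels of 6.15, 5.74 and 5.62 in GFP+ cells and 7.48, 7.24 and 7.00 in GFP- cells (-1.40, SE 0.166, limma adjusted p = 0.000131). Ctsh fell by 1.14, while Ctsd, a major aspartic protease of lysosomes, rose by 0.67 and Lipa, lysosomal acid lipase, by 0.56. Each of the 4 kept its call when any 1 sample was left out. Ctsd and Lipa lost theirs in the 6 day 13 samples alone, and Lipa also without number 5 in both sorts. Of 12 cartilage and bone genes, 2 rose, 0 fell and 10 did not pass (median 0.35). Acan, the cartilage proteoglycan aggrecan, had levels of 5.44, 4.72 and 5.07 in GFP+ cells and 4.09, 3.99 and 4.19 in GFP- cells (0.99, limma adjusted p = 0.0022), and Sox5, a cartilage transcription factor, rose by 0.92. Of 10 synthetic smooth muscle genes, 2 rose and 0 fell (Col8a1 by 1.26 and Thbs1 by 0.97, median 0.30), with 4 higher in the blocked fit. The synthetic count was 0 without GFP+ 5, GFP+ 6 or GFP- 3 and 1 without GFP+ 3 or GFP- 5.

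Few patterning genes were called, though the differences of 15 of 16 posterior Hox genes lay above 0, as did 13093 of all 25206 probe sets. Over all probe sets, 2.02% were called higher, and 3.39% in the blocked fit. Of 16 posterior Hox genes, which specify the hind end of the body, Hoxa11 and Hoxd10 rose by 0.84 and 0.74 (median 0.43), 5 were higher in the blocked fit and 7 without GFP+ 3, and 1 without GFP+ 5, GFP+ 6 or GFP- 3. Of 22 anterior and middle Hox genes, Hoxc6 alone rose, by 1.09 (median 0.09), and lost its call without GFP+ 6 (limma adjusted p = 0.0655). Of 31 lateral and limb mesoderm factors, 1 rose (Prrx1) and 2 fell (Msx2 by 1.50 and Tbx3 by 0.68, median 0.08), with 5 higher in the blocked fit. The higher count there was 4 without GFP+ 3 and 0 without GFP+ 5, and the lower count was 0 without GFP+ 6 and 1 without GFP+ 3, GFP+ 5, GFP- 3 or GFP- 5. Of 15 mesothelial and epicardial genes, Bnc2, a zinc finger factor of mesenchyme, rose by 1.10 and Podxl fell (median -0.04), with 2 higher and 2 lower without GFP+ 3 and 2 lower without GFP- 6 and in the blocked fit. Of 16 neural genes, Sox2 and Nes fell by 1.23 and 0.71 (median 0.04), with 1 higher and 2 lower in the blocked fit, and Nes lost its call without any 1 sample.

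Of 20 immediate early genes, Ier3 rose by 0.84 and 0 fell (median 0.21), with 3 higher in the blocked fit, 5 without GFP+ 3 and 2 without GFP- 6. Of 19 glycolysis and hypoxia genes, Adm and Car9 rose by 1.10 and 1.08 (median 0.09), and the count was 0 without GFP- 5 and 1 without GFP+ 5, GFP+ 6, GFP- 3 or GFP- 6. Fcgr3, an Fc receptor of leukocytes, fell by 1.05 and was the 1 gene called among 19 leukocyte genes (median 0.14). Of 14 blood progenitor, 13 skeletal muscle and 19 interferon genes, 0 were called by limma in either direction. At an unadjusted p under 0.05, 2 skeletal muscle and 2 interferon genes were higher and 1 blood and 1 interferon gene lower, and the blocked fit called 1 of these, a skeletal muscle list member, Pax3 (limma adjusted p = 0.0345). Without a share of all probe sets at that unadjusted threshold, these counts are no result about the lists.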
